A study of Mus musculus with 4 samples.

Results

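The genes described here are 9 genes that give mouse embryonic stem cells (ESCs) their epithelial character: the keratin genes Krt7, Krt8, Krt18 and Krt19, Cdh1 (E-cadherin), Epcam, and the claudin genes Cldn4, Cldn6 and Cldn7. They were chosen by symbol, and all 9 were found among 14376 genes tested. The cells carried floxed Arid1a alleles and CreERT2, a Cre recombinase that enters the nucleus when 4-hydroxytamoxifen (4-OHT) binds it. ARID1A is a DNA-binding subunit of the BAF chromatin remodelling complex. Cells of this same genotype received ethanol, the vehicle, or 1 µM 4-OHT for 24 hours, and polyA RNA was taken 72 hours after treatment, with 2 libraries per group. No group with 4-OHT but without floxed alleles was analysed here, so effects of 4-OHT, of Cre and of Arid1a deletion cannot be told apart. The ESCs grew with serum and LIF on irradiated embryonic fibroblasts, and libraries came from either of a pair of TruSeq kits without a record of which, so a kit difference cannot be told apart from the treatment either.

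ESCs grow as compact colonies whose cells adhere through E-cadherin, and they share much of their junction equipment with simple epithelia. Keratins are intermediate filament proteins that assemble as heteropolymers of a type II chain (keratin 7 or 8) with a type I chain (keratin 18 or 19), and desmosomes anchor these filaments to the membrane. Claudins are the membrane proteins of tight junctions, and EPCAM is an adhesion protein that binds claudin 7. Keratins 7, 8, 18 and 19 are also known from trophectoderm, the outer epithelium of the blastocyst.

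Arid1a RNA itself stood at 517 and 502 CPM (read counts scaled to library size) in ethanol and at a lower 241 and 213 CPM after 4-OHT (log2 fold change -1.16, SE 0.066, limma adjusted p = 7.27e-06). Effective library sizes were 6291532 to 7035534 reads, and 1 read was worth 0.142 to 0.159 CPM. The labels do not say whether replicates came from separate cultures. If not, the p-values reflect technical spread alone. Letters A and B tell the libraries of a group apart. A is the library with the larger effective size, and the letters do not stand for replicate numbers. Pou5f1, the pluripotency factor gene that marks ESCs, had levels of 1442 ± 79.2 CPM in ethanol and 1439 ± 107 CPM after 4-OHT (SD, n = 2 per group, as for every ± value below). Of 10 pluripotency genes, Fgf4 (46.3 to 76.2 CPM), Nanog (314 to 402 CPM) and Tdgf1 (666 to 818 CPM) rose, Sox2 (338 to 291 CPM) and Esrrb (203 to 169 CPM) fell, and 5 did not pass in limma. Over all genes limma called 9.46% at an adjusted p under 0.05.

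Of the 9 genes, 6 fell with 4-OHT, 0 rose and 3 did not pass the threshold (limma on log2(CPM + 1), adjusted p under 0.05 over all genes). Krt19, Krt7, Cldn4, Krt8, Cldn6 and Cdh1 were the 6 that fell, in order of the size of the change, and Cldn7, Epcam and Krt18 were the others. Over all genes tested 9.46% were called, 4.22% lower and 5.24% higher, and of genes at least as abundant as Krt7, the least abundant of the 9 in CPM, 5.17% were called lower. The median log2 fold change of the 9 was -0.46, against -0.0016 over all genes. In 8 of the 9, all but Krt18, both 4-OHT libraries lay below both ethanol libraries, as they did in 25.7% of all genes and in 28.3% of genes at least as abundant as Krt7. On reads, edgeR's quasi-likelihood test called 8 lower and 0 higher, adding Cldn7 and Epcam (over all genes it tested, 15.8% were called, 7.63% lower and 8.12% higher), and DESeq2 called 5, without Krt7. Without either 4-OHT library limma called 0 of the 9 (lowest adjusted p 0.134 and 0.136, with 7 and 7 at an unadjusted p under 0.05), as it then called 0 of all genes, while edgeR called 6 and 5. Without ethanol library A limma called 4 and without ethanol library B it called 5.

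**Figure D1:**
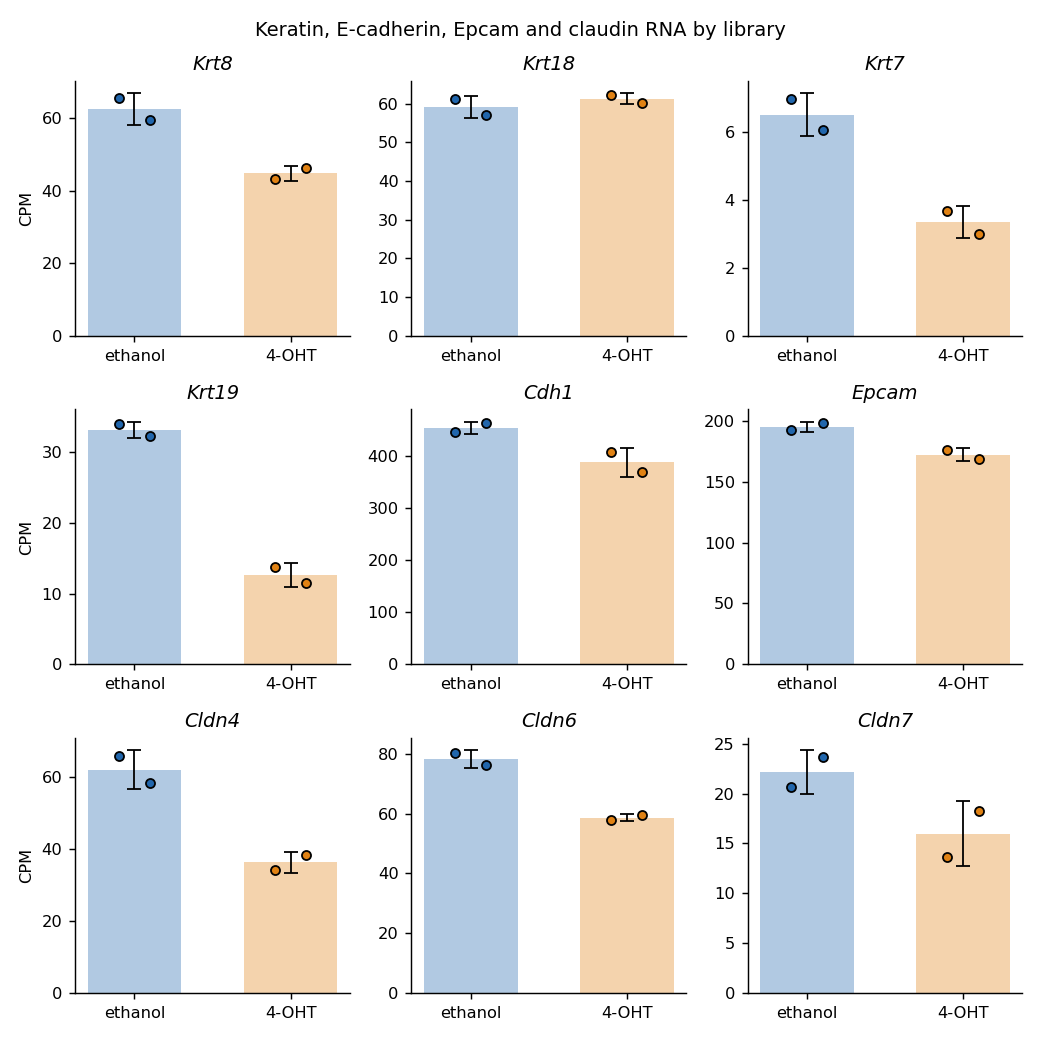
Levels of the 9 genes in CPM (vertical axes start at 0), ethanol in blue and 4-OHT in orange. Each point is a library, each bar a group mean and each error bar its SD. Krt19 went from 33.1 to 12.6 CPM and Krt8 from 62.5 to 44.7 CPM, while Krt18 stayed within its spread at 59.1 and 61.2 CPM.

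Krt19, a type I keratin gene (chromosome 11, 100140810 to 100148665, minus strand, mm10), showed the largest change of the set. Its level was 33.9 and 32.3 CPM in the ethanol libraries and 13.8 and 11.4 CPM in the 4-OHT libraries. The groups did not overlap, and the mean level was 2.63 times lower with 4-OHT. Its log2 fold change was -1.33 (SE 0.129, 95% interval -1.62 to -1.04, limma adjusted p = 0.00025), the tenth lowest value of all 14376 genes. In edgeR the fall passed without any of the libraries in turn (adjusted p at most 2.41e-12), whereas limma lost it without either 4-OHT library, as it lost every call.

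Krt7, a type II keratin gene of ducts and of trophectoderm (chromosome 15, 101411043 to 101430313, plus strand), was the most weakly expressed of the 9. Its reads numbered 45 and 39 in ethanol against 26 and 19 after 4-OHT, or 6.97 and 6.08 against 3.70 and 3.02 CPM. Both 4-OHT libraries were below both ethanol libraries, and the mean was 1.94 times lower (log2 fold change -0.79, SE 0.194, limma adjusted p = 0.0303). That call rests on few reads: it was lost in DESeq2 (adjusted p = 0.299), with a pseudocount of 0.1 (limma adjusted p = 0.0528), and without ethanol library A in both limma (adjusted p = 0.118) and edgeR (adjusted p = 0.0942), and without 4-OHT library B in edgeR (adjusted p = 0.0666). An annotated antisense gene, Gm671, overlaps Krt7, and whether counting was stranded is not given in the sources used here.

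Krt8 and Krt18, whose proteins are the usual partners in simple epithelial filaments, lie 23698 bases apart on chromosome 15 (Krt8 at 101996698 to 102004482 on the minus strand, Krt18 at 102028180 to 102032027 on the plus strand). Krt8, the type II partner, was at 65.6 and 59.4 CPM in ethanol compared with 43.2 and 46.3 CPM after 4-OHT. These groups did not overlap, and Krt8 fell to a level 1.40 times lower (log2 fold change -0.47, SE 0.0853, limma adjusted p = 0.00652). Krt18, the type I partner, was at 61.1 and 57.1 CPM in ethanol against 62.3 and 60.2 CPM after 4-OHT. Its groups overlapped, with a log2 fold change of 0.05 and a 95% interval of -0.12 to 0.22 (limma adjusted p = 0.749), which leaves out a fall of the size seen for Krt8. Within each library, Krt8 reads were 1.07 and 1.04 times Krt18 reads in ethanol and 0.694 and 0.768 times with 4-OHT. Against Krt18 in the same library, Krt19 reads went from ratios of 0.556 and 0.566 to 0.221 and 0.190. Both ratios separated the groups, but an exact two-sided permutation test of 2 against 2 libraries cannot give less than p = 0.333, which is what it gave. Krt8 has an annotated processed pseudogene, Krt8-ps, and an overlapping long noncoding gene on the other strand, Gm36026, so part of its count may be uncertain.

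**Figure D2:**
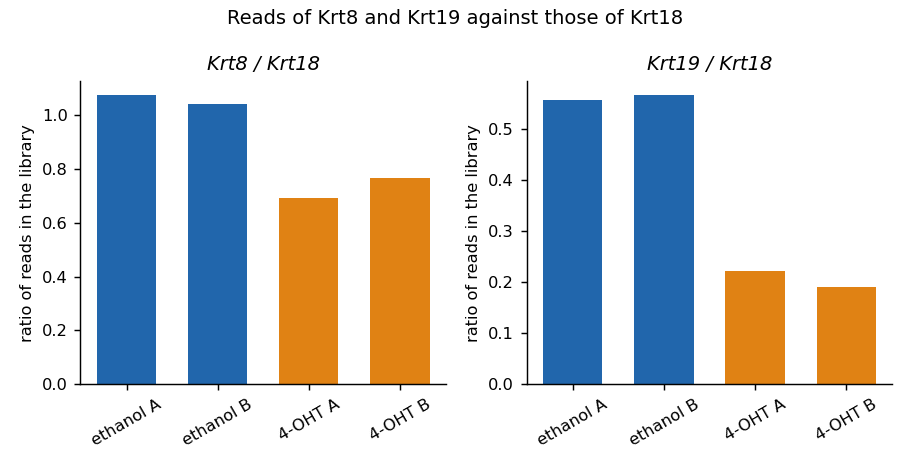
Ratio of reads (vertical axes, from 0) of Krt8 to Krt18 and of Krt19 to Krt18 in each of the 4 libraries, ethanol in blue and 4-OHT in orange. Both ethanol libraries had more Krt8 than Krt18 reads (1.07 and 1.04), and both 4-OHT libraries had fewer (0.694 and 0.768).

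The start regions of these neighbours are shown because Krt8 and Krt7 fell and Krt18 did not pass the test. Each sequence holds 250 bases before and 10 after a RefSeq start site (GRCm38.p6, the mm10 assembly), 5′ to 3′ on the gene's strand, with matches to any of the motifs searched in capitals. Both strands were searched. The E-box was searched as CACCTG, letters that repressors of the SNAIL and ZEB families are known to bind. The AP-1 site was searched as TGANTCA, the GC box as GGGCGG and the TATA box as TATAAA. The CACCC box was searched by the letters CCCACCC. The windows were Krt8 at chr15:102004333-102004592 (minus strand), Krt18 at chr15:102027966-102028225 (plus strand) and Krt7 at chr15:101412153-101412412 (plus strand).
Krt8: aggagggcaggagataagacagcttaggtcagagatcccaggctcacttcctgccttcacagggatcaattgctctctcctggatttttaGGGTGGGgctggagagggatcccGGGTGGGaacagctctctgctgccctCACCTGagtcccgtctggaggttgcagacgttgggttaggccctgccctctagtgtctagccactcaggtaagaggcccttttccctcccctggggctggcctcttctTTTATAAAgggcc
Krt18: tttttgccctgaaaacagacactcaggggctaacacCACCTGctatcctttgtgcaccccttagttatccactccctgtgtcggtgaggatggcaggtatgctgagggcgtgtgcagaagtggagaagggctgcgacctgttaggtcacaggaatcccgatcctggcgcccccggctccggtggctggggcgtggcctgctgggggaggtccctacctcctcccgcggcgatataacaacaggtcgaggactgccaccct
Krt7: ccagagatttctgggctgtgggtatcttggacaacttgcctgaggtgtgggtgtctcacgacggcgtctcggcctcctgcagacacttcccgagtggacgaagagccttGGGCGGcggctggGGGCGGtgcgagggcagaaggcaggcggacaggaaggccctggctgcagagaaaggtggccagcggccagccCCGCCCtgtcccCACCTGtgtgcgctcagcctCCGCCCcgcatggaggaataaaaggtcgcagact

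The E-box letters stood in all 3 windows, beginning at position -111 from the start site of Krt8, -214 from that of Krt18 and -44 from that of Krt7. The Krt18 window held no other match. Krt8 had CACCC boxes at -160 and -137 and TATA box letters that overlap on both strands at -3 and -1. Krt7 had 4 GC boxes. RefSeq windows were found for 7 of the 9 genes and not for Krt19 and Cdh1. These 7 genes had 8 windows, since Cldn7 had 2. Of the 8 windows, 7 held the E-box letters, all but 1 of the Cldn7 windows, as did 17.8% of 32851 windows of the same length. GC boxes were in 5 of the 8 windows (33.4% of all windows), CACCC boxes in 3 (16.1%), TATA box letters in that of Krt8 alone (12.7%) and AP-1 letters in that of Cldn4 alone (7.03%). These are letter matches only, with no measure of binding, and no different motifs overlapped in these windows.

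Among the claudin genes, Cldn4 changed most. Cldn4, which encodes a tight junction protein of many barrier epithelia (chromosome 5, 134945119 to 134946934, minus strand), was at 65.9 and 58.2 CPM in ethanol versus 34.3 and 38.3 CPM after 4-OHT. The groups lay well apart, and the mean was 1.71 times lower (log2 fold change -0.76, SE 0.0956, limma adjusted p = 0.000934). Cldn4 was called in DESeq2 (adjusted p = 2.33e-05), and in edgeR without any of the libraries in turn (adjusted p at most 1.86e-06). Its start region is shown as that of the claudin with the largest fall, and is the only window of the 7 genes with AP-1 letters, at positions -240 and -158 (chr5:134946925-134947184, minus strand, motifs in capitals as above).
Cldn4: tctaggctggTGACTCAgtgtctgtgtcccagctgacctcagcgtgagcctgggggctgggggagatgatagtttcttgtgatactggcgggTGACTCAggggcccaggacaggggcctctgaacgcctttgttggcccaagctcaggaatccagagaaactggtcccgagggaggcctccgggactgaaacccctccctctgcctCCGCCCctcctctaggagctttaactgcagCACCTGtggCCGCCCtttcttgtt

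Cldn6, a claudin of embryonic epithelia and pluripotent cells (chromosome 17, 23679249 to 23682446, plus strand), gave 519 and 489 reads in ethanol against 407 and 374 after 4-OHT. In CPM these were 80.4 and 76.3 against 57.8 and 59.4, with no overlap and a mean 1.34 times lower (log2 fold change -0.41, SE 0.0726, limma adjusted p = 0.00582). The Cldn6 call was made by DESeq2 as well (adjusted p = 0.0214). Cldn7, the EPCAM-binding claudin (chromosome 11, 69964779 to 69967885, plus strand), was at 20.6 and 23.7 CPM in ethanol compared with 13.6 and 18.3 CPM after 4-OHT. Its groups did not overlap, yet the 4-OHT libraries of Cldn7 were far apart, and it did not pass in limma (log2 fold change -0.46, SE 0.155, 95% interval -0.81 to -0.11, unadjusted, adjusted p = 0.099). Without 4-OHT library A the Cldn7 log2 fold change was -0.26, and without 4-OHT library B it was -0.66. For Cldn7 edgeR gave an adjusted p of 0.0114 and DESeq2 0.369, and a minimum mean level gave a limma adjusted p of 0.0118. Its edgeR call was lost without ethanol library B (adjusted p = 0.171) and without 4-OHT library A (adjusted p = 0.326).

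Cdh1, which encodes E-cadherin, the adhesion receptor of ESC colonies (chromosome 8, 106603351 to 106670246, plus strand), was at 446 and 463 CPM in ethanol against 409 and 369 CPM after 4-OHT. Both 4-OHT libraries were lower, but the difference was small, with a mean 1.17 times lower (log2 fold change -0.23, SE 0.0618, limma adjusted p = 0.0466). The Cdh1 call was near the threshold: limma lost it when any 1 of the 4 libraries was left out (adjusted p 0.107 to 0.282) and with a pseudocount of 0.1 (adjusted p = 0.0687), and edgeR lost it without ethanol library A (adjusted p = 0.0503), ethanol library B (adjusted p = 0.166) or 4-OHT library B (adjusted p = 0.0960). Epcam, the adhesion gene (chromosome 17, 87635979 to 87651129, plus strand), was at 192 and 198 CPM in ethanol versus 176 and 168 CPM after 4-OHT. These did not overlap either, but Epcam did not pass in limma (log2 fold change -0.18, 95% interval -0.31 to -0.05, unadjusted, adjusted p = 0.0846) or in DESeq2 (adjusted p = 0.316), and it lay at the threshold in edgeR (adjusted p = 0.0498), where leaving out any 1 library lost it (adjusted p 0.0508 to 0.331). The intervals of Cdh1 and Epcam leave out a change as large as that of Cldn4.

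**Figure D3:**
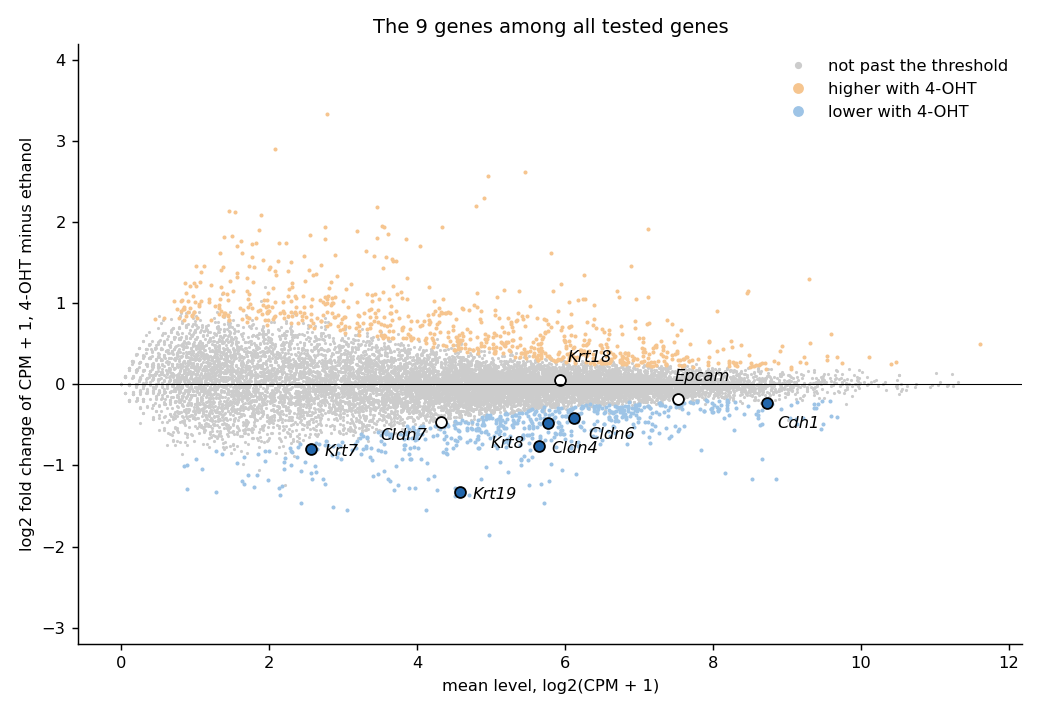
Mean level, log2(CPM + 1) (horizontal axis), and log2 fold change after 4-OHT on the same scale (vertical axis) of 14376 genes; the 9 genes are circled, filled where they passed the limma threshold. Krt19 lies lowest at -1.33, and Krt18, Epcam and Cldn7 are the open circles.

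Per kilobase of annotated exon (Gencode M21 basic, union of exons), E-cadherin RNA was the most abundant of the 9 in ethanol, at 101 and 105 CPM per kilobase, followed by Epcam at 93.2 and 96.0. Cldn6 (46.7 and 44.3 CPM per kilobase) and Krt18 (42.5 and 39.7) came next. Cldn4 (36.3 and 32.0) and Krt8 (33.5 and 30.4) overlapped, so their order in ethanol is not set by these libraries. Krt19 (21.5 and 20.5 CPM per kilobase), Cldn7 (14.0 and 16.1) and Krt7 (1.70 and 1.49) were the lowest. With 4-OHT Cdh1 (92.2 and 83.3 CPM per kilobase) and Epcam (85.2 and 81.7) overlapped. Krt18 (43.3 and 41.9) was then above Cldn6 (33.6 and 34.5), Krt8 (22.1 and 23.6) was above Cldn4 (18.9 and 21.1), and Cldn7 (9.24 and 12.4) was above Krt19 (8.75 and 7.26). Summed per kilobase, the type I chains Krt18 and Krt19 stood at 64.0 and 60.2 in ethanol and 52.1 and 49.2 with 4-OHT, and the type II chains Krt8 and Krt7 at 35.2 and 31.8 against 23.0 and 24.4. Levels per length rest on the annotated exons, since the isoforms used were not measured.

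The rest of both families was mostly weakly expressed. For the counts of both families, the shares over all genes were 9.46% called in limma and 15.8% of those tested in edgeR. Of 6 other keratin genes measured (Krt1, Krt10, Krt12, Krt17, Krt20 and Krt42), 0 passed in limma, 0 had an unadjusted p under 0.05 and edgeR called 0 of the 4 it tested. All 6 stood below 5 CPM per library, with Krt20 at 3.41 and 4.84 CPM in ethanol compared with 2.56 and 3.34 CPM after 4-OHT, and Krt10 at 3.10 and 2.96 against 3.13 and 4.29 CPM. Of 5 other claudin genes, Cldn5, best known from endothelium, rose from 1.70 and 1.25 CPM to 5.12 and 3.18 CPM (11 and 8 reads against 36 and 20). Its log2 fold change was 1.04 (SE 0.241, limma adjusted p = 0.0238), with no call in DESeq2 (adjusted p = 0.191) and none in limma or edgeR without ethanol library B, or in edgeR without 4-OHT library A. Cldn3, the neighbour of Cldn4 at a distance of 39280 bases, was at 5.89 and 4.99 CPM in ethanol against 7.39 and 8.58 CPM after 4-OHT, which did not pass (log2 fold change 0.48, limma adjusted p = 0.139). Cldn9, which lies 138 bases from Cldn6, was at 0.711 to 1.39 CPM in every library and did not pass (adjusted p = 0.695). Cldn12 was the exception in level, at 69.1 and 74.9 against 80.4 and 80.7 CPM, and did not pass either (adjusted p = 0.207).

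Genes of the desmosome, the junction that holds keratin filaments, were lower in part. Of 9 measured, 5 fell, 0 rose and 4 did not pass, and edgeR gave the same counts. Over all genes limma called 4.22% lower, and edgeR 7.63% of those it tested. The median log2 fold change of the list was -0.54, against -0.0016 over all genes. Dsg2, a desmosomal cadherin gene, was at 71.8 and 75.2 CPM in ethanol versus 41.6 and 32.3 CPM after 4-OHT. Its mean was 1.99 times lower (log2 fold change -0.98, SE 0.112, limma adjusted p = 0.000544). Dsc2, which encodes the partner cadherin desmocollin 2, went from 17.0 and 14.5 CPM to 6.25 and 6.68 CPM. This was the largest change of the list, to a level 2.44 times lower (log2 fold change -1.16, SE 0.161, limma adjusted p = 0.00154).

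Of the plaque genes below these cadherins, Jup, which encodes plakoglobin, fell from 210 and 179 to 135 and 132 CPM (log2 fold change -0.54, limma adjusted p = 0.00175). Dsp, which encodes desmoplakin, the linker to keratin filaments, fell from 49.3 and 56.9 to 36.0 and 36.2 CPM (log2 fold change -0.54, limma adjusted p = 0.00549). Ppl (periplakin) fell from 12.6 and 9.98 to 7.39 and 6.04 CPM (log2 fold change -0.67, limma adjusted p = 0.047), a call that DESeq2 did not make (adjusted p = 0.268). In 7 of the 9 desmosome genes, these 5, Pkp3 and Pkp4, both 4-OHT libraries lay below both ethanol libraries, as in 25.7% of all genes. Pkp2, the plakophilin gene, was at 87.0 and 83.8 CPM in ethanol compared with 82.9 and 86.0 CPM after 4-OHT and overlapped (95% interval of the log2 fold change -0.17 to 0.13). Pkp3, at 13.5 and 12.0 against 10.7 and 7.47 CPM, had a log2 fold change of -0.47, near those of Jup and Dsp, without passing (limma adjusted p = 0.157). Pkp4, at 194 and 201 against 184 and 176 CPM, and Evpl, which overlapped, did not pass either. Jup, Dsp and the 4 genes that did not pass were named after their values were seen. In edgeR the list held 4 to 6 lower and 0 higher calls when each library was left out in turn, and limma, as for all genes, called 0 without either 4-OHT library.

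**Figure D4:**
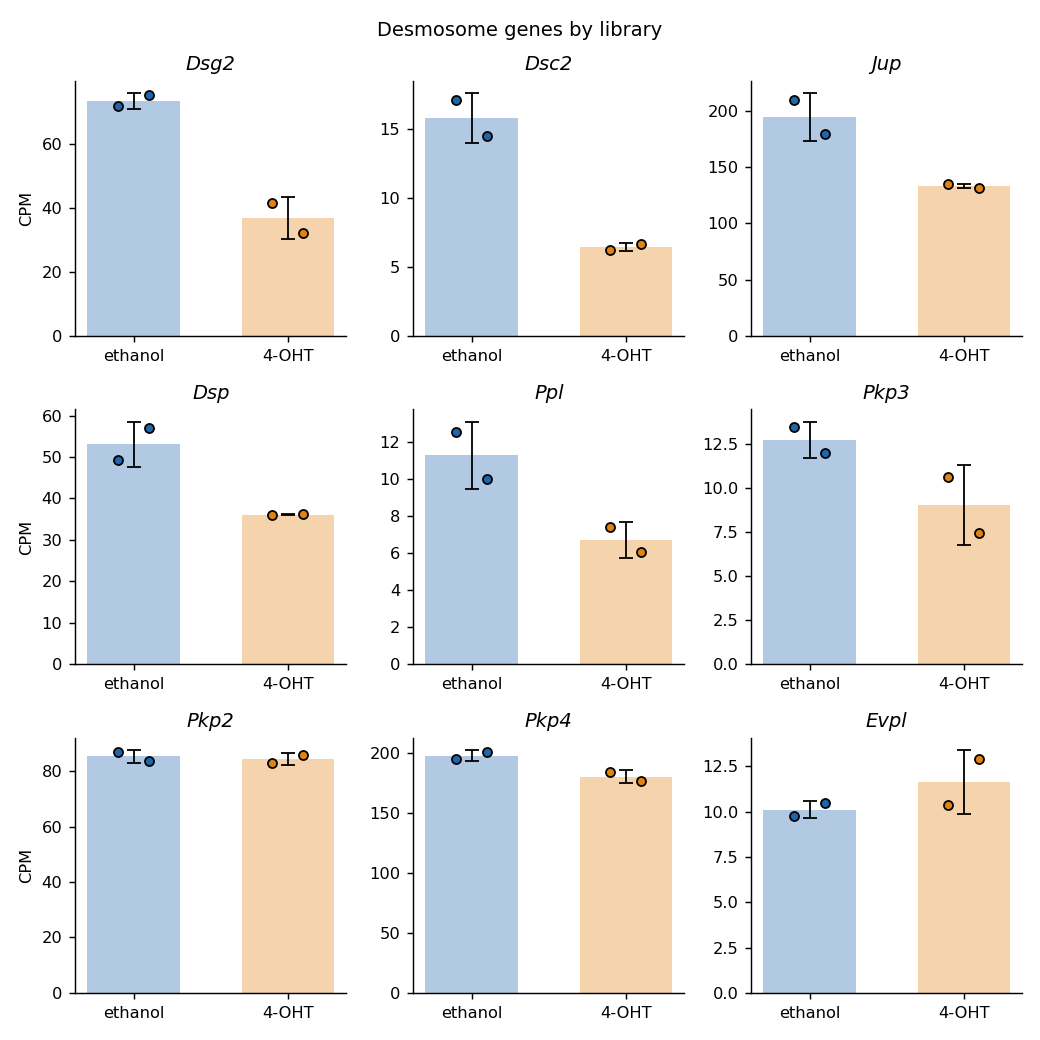
Levels of 9 desmosome genes in CPM (vertical axes start at 0), ethanol in blue and 4-OHT in orange. Each point is a library, each bar a group mean and each error bar its SD. Dsg2, Dsc2, Jup, Dsp, Ppl, Pkp3 and Pkp4 are lower in both 4-OHT libraries, the first 5 of them past the limma threshold, and Pkp2 and Evpl overlap.

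Most of the listed partners of E-cadherin did not pass the test. Of 13 adherens junction genes, Nectin1 fell, Actn4 rose and 11 did not pass (median log2 fold change -0.07), where limma called 9.46% of all genes. Both 4-OHT libraries lay below both ethanol libraries in Ctnna1, Ctnnb1, Ctnnd1, Nectin1, Nectin2, Nectin3 and Ajuba, as in 25.7% of all genes. They lay above them in Cdh3, Pard3 and Actn4, a direction for which no share of all genes was counted. Nectin1, an adhesion receptor gene, went from 29.1 and 27.5 to 18.2 and 17.0 CPM (log2 fold change -0.66, SE 0.114, limma adjusted p = 0.00553). Actn4, an actin crosslinker gene, went from 1275 and 1206 to 1487 and 1475 CPM (log2 fold change 0.26, limma adjusted p = 0.0155), a call lost in limma when any 1 of the 4 libraries was left out and in edgeR without ethanol library B. The catenin genes of this list did not pass in limma, and Jup (plakoglobin), which fell, was counted with the desmosome genes instead. Ctnnb1 was at 1305 and 1336 CPM against 1253 and 1265, and Ctnna1 at 618 and 640 against 570 and 535 CPM (limma adjusted p = 0.474 and 0.0658). For Ctnna1 edgeR made the call (adjusted p = 0.0167), and its log2 fold change of -0.19 was near that of Cdh1 (-0.23). Cdh3, the P-cadherin gene, was at 36.9 and 34.9 CPM in ethanol against 45.9 and 41.3 CPM after 4-OHT, higher in both libraries without passing (limma adjusted p = 0.105). Of 14 other tight junction genes, limma called 0 (3 at an unadjusted p under 0.05) and edgeR called Tjp1 higher and Prkci lower (adjusted p = 0.0423 and 0.00857). By comparison, edgeR called 15.8% of all genes it tested.

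Of 17 other epithelial genes, 3 fell, 0 rose and 14 did not pass (median log2 fold change -0.08), where limma called 4.22% of all genes lower. Ap1m2, which encodes an epithelial adaptor subunit of basolateral sorting, fell from 27.1 and 25.3 to 12.9 and 15.3 CPM (limma adjusted p = 0.00275). St14, the gene of the membrane protease matriptase, fell from 140 and 131 to 108 and 108 CPM (limma adjusted p = 0.0117). In edgeR 4 fell and 0 rose, adding Grhl3, where edgeR called 7.63% of all genes it tested lower. Regulators of the epithelial state in the list did not pass in limma. Grhl3 was at 13.2 and 16.1 against 11.4 and 7.47 CPM (limma adjusted p = 0.0918, edgeR adjusted p = 0.00834), Ovol2 at 4.03 and 3.74 against 2.42 and 2.38 CPM (limma adjusted p = 0.134) and Elf3 at 17.7 and 20.3 against 14.9 and 15.1 CPM (limma adjusted p = 0.179), each lower in both 4-OHT libraries. Grhl2 was at 37.7 and 44.1 against 41.9 and 35.6 CPM, and Esrp1 at 47.7 and 45.7 against 44.6 and 47.4 CPM. Grhl2 and Esrp1 overlapped between groups, as did Grhl1 (log2 fold change 0.0683) and Ovol1 (0.0396). Esrp2 was higher in both 4-OHT libraries without passing (log2 fold change 0.0851). Of all genes, 25.7% had both 4-OHT libraries below both ethanol libraries, as Grhl3, Ovol2 and Elf3 did. All of these regulators were named after their values were seen.

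**Figure D5:**
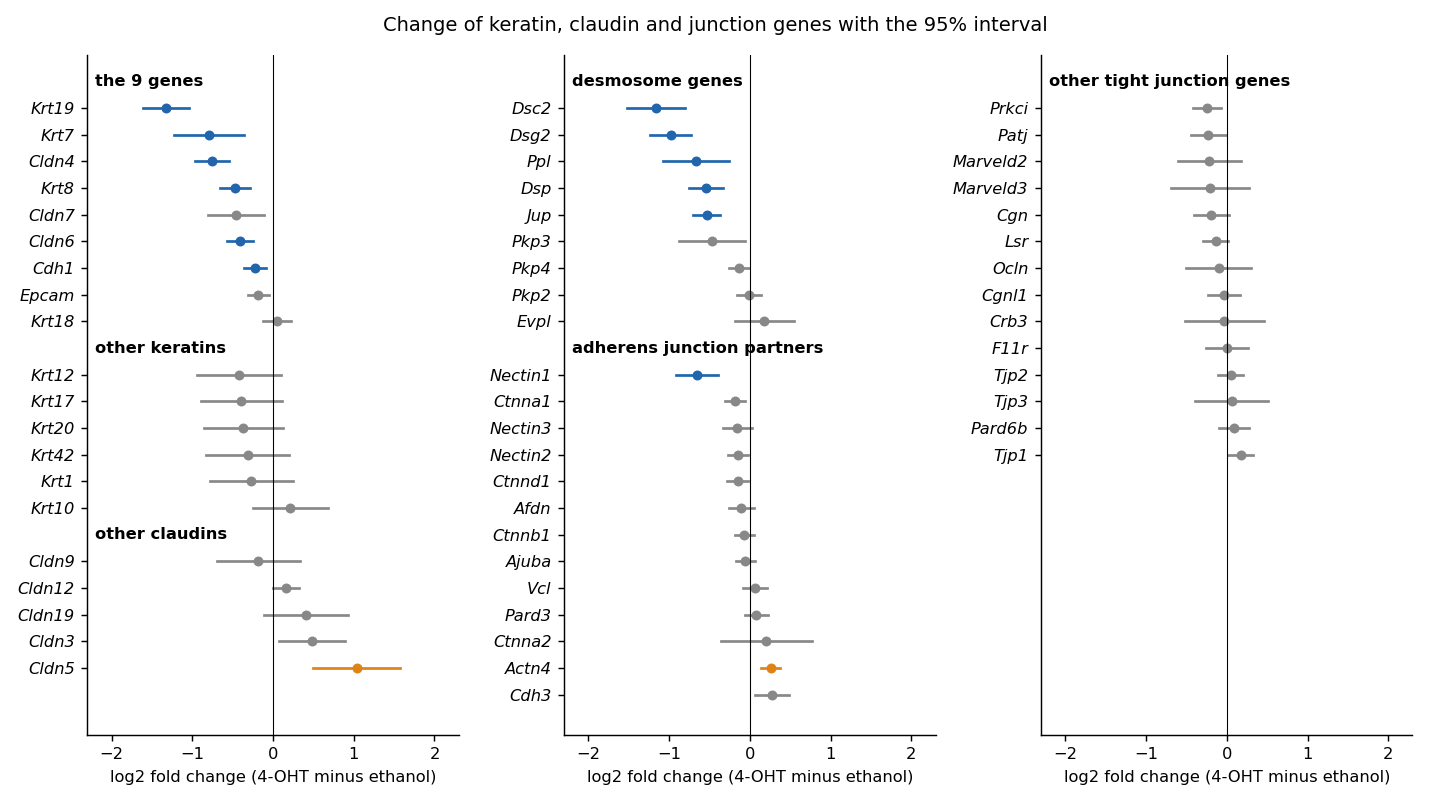
Log2 fold change after 4-OHT on the CPM + 1 scale (horizontal axis; point) with its unadjusted 95% interval (line) for the 9 genes, other keratins and claudins, and 3 lists of junction genes; blue fell, orange rose and grey did not pass in limma. Falls are seen for 6 of the 9 genes and 5 of 9 desmosome genes, and 0 of 14 other tight junction genes passed.

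Markers of mesenchymal and other cells were measured beside these genes. Over all genes limma called 5.24% higher and 4.22% lower, and edgeR called 8.12% and 7.63% of those it tested. Of 12 mesenchymal genes, limma called 0 higher and Fn1 (fibronectin) lower, from 625 and 644 to 297 and 270 CPM, and edgeR also called Cdh11 higher (0.855 to 2.36 CPM, edgeR adjusted p = 0.0279). Vim, the vimentin gene, overlapped at 488 and 482 against 492 and 467 CPM. Cdh2 (N-cadherin), Zeb1 and Snai1 did not pass: Cdh2 was at 30.7 and 34.6 against 28.3 and 25.7 CPM, Zeb1 at 19.1 ± 1.52 against 23.8 ± 2.16 CPM and Snai1 at 5.11 and 4.21 against 3.98 and 4.61 CPM. Both 4-OHT libraries lay above both ethanol libraries in Zeb1, Twist1 and Cdh11, a direction for which no share of all genes was counted. They lay below them in Fn1, Cdh2 and Mmp2, as in 25.7% of all genes. Log2 fold changes were 0.305 for Zeb1 (limma adjusted p = 0.171), 0.333 for Twist1 (0.3048) and -0.264 for Cdh2 (0.172). Cdh2, Zeb1, Snai1, Twist1 and Mmp2 were named after their values were seen.

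RNA of the fibroblast feeders may be part of each library. The counts of the marker lists below stand beside 9.46% of all genes called in limma and 15.8% of those tested in edgeR. Of 13 feeder markers, Col1a2 and Thy1 rose, Col5a2 fell and 10 did not pass, and the summed level of the list was 217 and 215 CPM in ethanol and 235 and 227 CPM with 4-OHT. Col1a1, the most abundant of them, was at 48.0 and 46.3 against 50.7 and 45.9 CPM. Of 11 trophoblast markers, Tfap2a and Cdx2 rose, 0 fell in limma and 9 did not pass, while edgeR called Gata2, Gata3 and Tead4 lower. Their summed level was 164 and 154 against 159 and 159 CPM. Of this sum Tfap2c, the most abundant of these markers, was 90.2 and 89.4 against 85.4 and 83.9 CPM. Of 12 endoderm markers limma called 0 (4 at an unadjusted p under 0.05) and edgeR called Sox7 and Cubn higher, with a summed level of 88.0 and 88.0 against 101 and 103 CPM. Of that sum Rhox5, the most abundant endoderm marker, was 44.2 and 41.8 against 48.9 and 52.0 CPM. Dcn, Lum and Postn of fibroblasts, Elf5 and Tpbpa of trophoblast and Afp and Ttr of endoderm were listed but not found among the genes tested. The part of these cell types in the falls of Krt19, Krt7, Krt8 and the claudins was not tested. In bulk RNA fewer cells of a type and less RNA per cell cannot be told apart.

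Genes that behaved most like Krt19 were found by the smallest distance of centred log2(CPM + 1) values over the 4 libraries, over 10374 genes whose log2(CPM + 1) averaged 3 or more. They were Laptm5 (distance 0.0913), Cdx1 (0.130), Arhgef26 (0.138), Arid1a (0.175) and Emp1 (0.177). Laptm5 was at 64.0 and 62.1 CPM in ethanol versus 28.7 and 23.7 CPM after 4-OHT, and Emp1, an epithelial membrane protein gene, at 23.6 and 23.6 against 11.2 and 8.74 CPM. In Laptm5, Cdx1, Arhgef26, Arid1a and Emp1, as in Krt19, 4-OHT library B was the lowest of the 4. With 4 libraries this likeness describes little beyond the size of the fall.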

How the data were processed

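The series holds polyA RNA-seq of 2 ethanol and 2 4-OHT samples. Per the submitters' processing notes, the authors used FastQC, Trimmomatic, HISAT2 and edgeR with mm10; the sources used here name no versions, counting tool or gene models and do not say whether counting was stranded. The deposited table gave each group's mean CPM, and per the file headers also the authors' log2 fold change and adjusted p-value, which were not used because they are out of register: sorted by Entrez number as text, the rows held deposited p-values that never fell in 14381 steps. Each mean is the sum of 2 whole read numbers times 2 steps. With steps found from low values, 100% of values in both columns came out as whole reads within 0.6 of the last printed digit, 99.7% of genes in ethanol and 99.95% with 4-OHT had exactly 1 possible pair of read numbers, and of 14382 genes the 6 left without 1 pair were left out. Columns carry no replicate numbers. CPM per library was tested with limma-trend 3.58.1 (R 4.3.3) on log2(CPM + 1), two-sided, with no low-level filter and Benjamini-Hochberg adjustment over 14376 genes at 0.05. Fold changes on this scale understate those of low genes. Recovered reads were tested with edgeR 4.0.16 (its quasi-likelihood test after filterByExpr, with effective sizes from the steps) and DESeq2 1.42.0. The limma and edgeR fits and the recovery were tested on simulated data, and the DESeq2 fit was not. Intervals are limma's unadjusted 95% confidence intervals of the log2 fold change, with a variance that borrows from all genes.

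The members and lists were chosen with earlier results of these data known. Genes were named by a rule: the 9 genes and Arid1a whatever their result, up to 3 called genes of each list with the largest change, the most abundant gene of each marker list and the 5 genes most like Krt19. List genes named outside this rule were chosen after their values were seen. A called gene of the other epithelial list is not reported here. Symbols are those of the table. Coordinates are from Gencode M21 (GRCm38, which is mm10) and start regions from RefSeq (GRCm38.p6). Alternatives were a pseudocount of 0.1, a minimum mean log2(CPM + 1) of 1, DESeq2 size factors, edgeR, DESeq2, a threshold of 0.01 and leaving out each library.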

Additional observations from a re-analysis of the deposited data

How the results depend on the processing

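The count over all genes, 1360, moved to 2042 in edgeR, 704 in DESeq2 and 638 at a threshold of 0.01, and ranged from 0 to 1767 when a library was left out. For the 9 genes the count of 6 was 4 with a pseudocount of 0.1, 7 with a minimum level, 6 with DESeq2 size factors, 8 in edgeR, 5 in DESeq2 and 4 at a threshold of 0.01, and ranged from 0 to 6 without a library; every call in these settings was lower. In limma without a 4-OHT library the lone library is assumed to vary like the ethanol pair. None of the 9 log2 fold changes changed sign under any of the 14 alternatives. DESeq2 size factors moved the median of all genes by 0.00037. Krt19, Cldn4, Krt8 and Cldn6 were called in limma, edgeR, DESeq2 and each edgeR fit without a library. Depth limits Krt7 most, with 19 to 45 reads per library. No paired analysis was possible because the columns carry no replicate numbers.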
